A study of Homo sapiens with 30 samples.

Results

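The response of diffuse large B-cell lymphoma (DLBCL) cells to the PI3Kβ/δ inhibitor AZD8186 was sampled first at 6 h, and the 8 RNA-sequencing libraries of that time point, of 30 libraries in all, are described here. AZD8186 was given at 0.5 µM to 4 established cell lines, and each AZD8186 library has a DMSO library of the same line at 6 h, which gives 4 pairs. OCI-Ly10 and TMD8 belong to the activated B-cell-like (ABC) subtype, HT and K422 to the germinal center B-cell-like (GCB) subtype, and the description of the series counts all 4 lines as sensitive to AZD8186. The libraries were taken by their labels and not by a measured value. Earlier results of these data were known when they were chosen. The labels name DMSO as the control, whereas the description of the series calls the controls untreated. Each line has 1 library per treatment at 6 h and the sources do not say whether cultures were separate. The 4 lines therefore stand as replicates of the response, a p-value reflects the spread between these libraries alone, and a response in 1 line alone has no replicate check. In these bulk samples, fewer cells with a transcript and less of it per cell cannot be told apart.

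Class I PI3 kinases turn a membrane phospholipid into the second messenger PIP3, which brings the kinase AKT to the membrane. Active AKT holds the FOXO transcription factors in the cytoplasm and turns on mTORC1, which drives ribosome production, protein synthesis and the synthesis of sterols and fatty acids. In B cells PI3Kδ acts downstream of the B-cell receptor, whose signals also reach NF-κB, AP-1 and the MAP kinases, and those pathways induce early response genes and cytokines within hours.

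The total of the expected counts, RSEM's estimates of reads per gene, ranged from 17360706 to 18531797 (median 17618684) in the 4 AZD8186 libraries and from 16895329 to 20705430 in the 4 DMSO libraries. Ribosomal RNA took 1.24% to 4.35% of the counts under AZD8186 and 0.706% to 2.69% under DMSO, and TMD8 had the highest share under each treatment. All 8 libraries carried the B-cell transcript CD79A (527 to 1332 CPM, the count scaled to the library total). IRF4 and CCND2, which mark ABC cells, reached at least 139 CPM in OCI-Ly10 and TMD8 and at most 0.0483 in HT and K422, whereas MME, a germinal center marker, had at most 1.55 in OCI-Ly10 and TMD8 and at least 99.9 in HT and K422. Markers that did not follow the labels were LMO2 and FOXP1. LMO2, of germinal center cells, had 7.18 CPM under AZD8186 and 44.6 under DMSO in TMD8 and at most 0.58 in HT and K422, and FOXP1, of ABC cells, had 97.3 and 111 in TMD8 and 132 and 83.1 in K422. Summed over each list, T-cell markers took 0.000409% to 0.0148% of the counts under AZD8186 and 0.000556% to 0.0143% under DMSO, myeloid markers 0.000348% to 0.00314% and 0.000517% to 0.00253%, and stromal and epithelial markers 0.000518% to 0.0538% and 0.000411% to 0.0395%. Among markers of other cells, K422 held the T-cell gene CD3G (84.3 under AZD8186 and 68.2 under DMSO) and the stromal gene DCN (529.5 and 392), TMD8 held the myeloid gene CD68 (30.4 and 22.5), HT the T-cell gene LCK (72.4 and 82.9 after normalization), HT and K422 the T-cell gene CD247 (30.9 and 33.0 in HT), OCI-Ly10 the epithelial gene KRT8 (242 and 248 after normalization), and CD2, MPO and COL1A2 stayed under 1 CPM in every library. Across 9468 genes averaging 5 CPM (the same unit, after normalization) or more, the log2 CPM of the AZD8186 library correlated with that of its DMSO library at 0.993 in HT, 0.985 in K422, 0.992 in OCI-Ly10 and 0.975 in TMD8, so that the TMD8 pair was the least alike.

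At 6 h, 8 genes passed the test across the 4 lines. PTPN6, which encodes the phosphatase SHP-1, a brake on B-cell receptor signaling, fell, and was lower in all 4 lines. The cytokine IL10, the early response factor EGR2 and the checkpoint receptor PDCD1 (PD-1) fell too, with nearly all of their reads in the ABC lines. The zinc transporter SLC39A8, the chaperone DNAJB1 and the vesicle protein SYNGR2 fell by smaller amounts and were lower in every line. CCNG2, which encodes cyclin G2, a FOXO target linked to leaving the cell cycle, rose and was higher in every line. The test was edgeR's quasi-likelihood F test of AZD8186 minus DMSO with cell line as a term, over 11275 genes left by its low-count filter, with p-values adjusted by Benjamini and Hochberg's method and a threshold of 0.05. Of these genes, 7 were lower (0.0621%) and 1 was higher (0.00887%), while 1309 were lower (11.6%) and 1164 higher (10.3%) at an unadjusted p under 0.05. With 3 residual degrees of freedom, an adjusted p under 0.1 was reached by 354 lower and 236 higher genes. Values below are CPM after TMM normalization, and a log2 ratio is that of an AZD8186 library to the DMSO library of its line, with a prior count of 2.

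PTPN6 had 36.2, 94.0, 156 and 124 CPM in the AZD8186 libraries of HT, K422, OCI-Ly10 and TMD8, against 104, 461, 569 and 524 CPM in the DMSO libraries of these lines. Within each line the AZD8186 library was the lower one, and HT had the least PTPN6 under either treatment. PTPN6 (chromosome 12, 6946468 to 6961316, plus strand, in GENCODE 29 on GRCh38) was lower in 4 of 4 pairs, with log2 ratios of -1.52, -2.29, -1.87 and -2.08 and a fitted log2 change of -1.95 ± 0.12 (SE) at an adjusted p of 0.00629.

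IL10, a cytokine that ABC cells secrete, had 0.0486, 0, 3.91 and 9.38 CPM under AZD8186 in HT, K422, OCI-Ly10 and TMD8, against 0.0514, 0.0437, 20.3 and 49.0 CPM under DMSO. The GCB libraries were at or near 0, with 0 to 1 count each, so that the fall rested on OCI-Ly10 and TMD8, whose log2 ratios were -2.35 and -2.37. IL10 (chromosome 1, 206767602 to 206772494, minus strand) had a fitted log2 change of -2.35 ± 0.19 (SE) at an adjusted p of 0.0169. PDCD1, which encodes an inhibitory receptor of activated lymphocytes, had 0, 0, 6.11 and 6.10 CPM under AZD8186 in HT, K422, OCI-Ly10 and TMD8, against 0.103, 0.0437, 23.0 and 23.0 CPM under DMSO. Its levels in OCI-Ly10 and TMD8 were nearly equal under each treatment, with log2 ratios of -1.90 and -1.90, and the GCB libraries had 0 to 2 counts. PDCD1 (chromosome 2, 241849881 to 241858908, minus strand) fell by 1.93 on the log2 scale (SE 0.20, adjusted p = 0.0367).

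EGR2, a zinc finger factor induced soon after receptor signals, had 0, 0, 1.01 and 2.23 CPM under AZD8186 in HT, K422, OCI-Ly10 and TMD8, against 0.0514, 0.437, 13.4 and 15.6 CPM under DMSO. In counts these were 0, 0, 16 and 34 under AZD8186 and 1, 10, 225 and 235 under DMSO, so that K422 had a low level only under DMSO and HT had next to none. EGR2 (chromosome 10, 62811996 to 62919900, minus strand) had a fitted log2 change of -3.26 ± 0.32 (SE) at an adjusted p of 0.0367 and was the only called member of the list of early genes below. Fitted fold changes of genes with libraries at 0 depend on the prior count, so that those of EGR2, IL10 and PDCD1 are no bounds. CCNG2 had 65.8, 40.8, 9.96 and 11.9 CPM under AZD8186 in HT, K422, OCI-Ly10 and TMD8, against 23.4, 11.3, 5.05 and 5.33 CPM under DMSO. All 4 AZD8186 libraries lay above their DMSO libraries, the GCB lines at the higher levels, with log2 ratios of 1.49, 1.83, 0.96 and 1.15. CCNG2 (chromosome 4, 77157151 to 77433388, plus strand) had a fitted log2 change of 1.42 ± 0.15 (SE) at an adjusted p of 0.0367 and was the only called member of the list of FOXO targets.

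The promoters of CCNG2 and EGR2, the called genes of the FOXO and early lists, are shown because these genes head lists whose members mostly lay on opposite sides of 0. Each window spans 250 bases before to 50 bases after a start site, from RefSeq on GRCh38.p14, and capitals mark an E-box (CACGTG), the site that MYC and its relatives can bind. In both windows the E-box began 30 bases before the start site. The FOXO motif TGTTTAC and the cyclic AMP response element TGACGTCA, searched on both strands as was the E-box, which reads the same on each, were not found in these windows. RefSeq gives EGR2 3 start sites, and the other two windows held none of the 3 motifs. Of 35116 promoters of this length, 7.26% held the E-box, 3.42% the FOXO motif and 1.85% the cyclic AMP response element, and a match is a description only.
CCNG2 promoter, chr4:77156957-77157256, plus strand: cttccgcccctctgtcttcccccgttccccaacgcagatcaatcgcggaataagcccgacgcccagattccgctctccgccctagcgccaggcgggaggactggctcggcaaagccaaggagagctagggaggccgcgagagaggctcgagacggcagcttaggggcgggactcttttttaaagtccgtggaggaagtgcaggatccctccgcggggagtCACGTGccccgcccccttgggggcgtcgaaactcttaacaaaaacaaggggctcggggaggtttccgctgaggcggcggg
EGR2 promoter, chr10:62818726-62819025, minus strand: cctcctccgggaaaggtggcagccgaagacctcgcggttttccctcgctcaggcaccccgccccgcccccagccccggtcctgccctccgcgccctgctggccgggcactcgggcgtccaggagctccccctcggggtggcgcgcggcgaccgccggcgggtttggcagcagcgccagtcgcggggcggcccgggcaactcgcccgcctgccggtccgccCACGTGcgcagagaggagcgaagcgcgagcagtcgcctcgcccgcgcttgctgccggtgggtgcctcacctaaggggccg

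The 3 remaining called genes fell by less than those above, and by similar amounts in each line. SLC39A8, which carries zinc and manganese into cells, had 90.2, 141, 27.1 and 19.7 CPM under AZD8186 in HT, K422, OCI-Ly10 and TMD8, against 142, 256, 44.9 and 39.8 CPM under DMSO. HT and K422 had the higher levels, and the log2 ratios lay between -1.01 and -0.66. DNAJB1, a partner of HSP70 chaperones, had 282, 134, 65.1 and 159 CPM under AZD8186 in HT, K422, OCI-Ly10 and TMD8, against 407, 236, 101 and 233 CPM under DMSO. The AZD8186 library was lower in each line, by 0.63 on the log2 scale in the fit (SE 0.067). SYNGR2, a membrane protein of vesicles, had 158, 30.6, 163 and 361 CPM under AZD8186 in HT, K422, OCI-Ly10 and TMD8, against 237, 46.4, 217 and 542 CPM under DMSO. The 4 log2 ratios of SYNGR2 spanned -0.60 to -0.42, the narrowest spread of the 8 genes. The adjusted p was 0.0367 for each of these 3 genes, and the log2 fold changes were -0.81 (SE 0.079) for SLC39A8 and -0.55 (SE 0.059) for SYNGR2. SLC39A8 lies on chromosome 4, 102251041 to 102431258, minus strand, DNAJB1 on chromosome 19, 14514770 to 14529770, minus strand and SYNGR2 on chromosome 17, 78168558 to 78173527, plus strand.

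**Figure D1:**
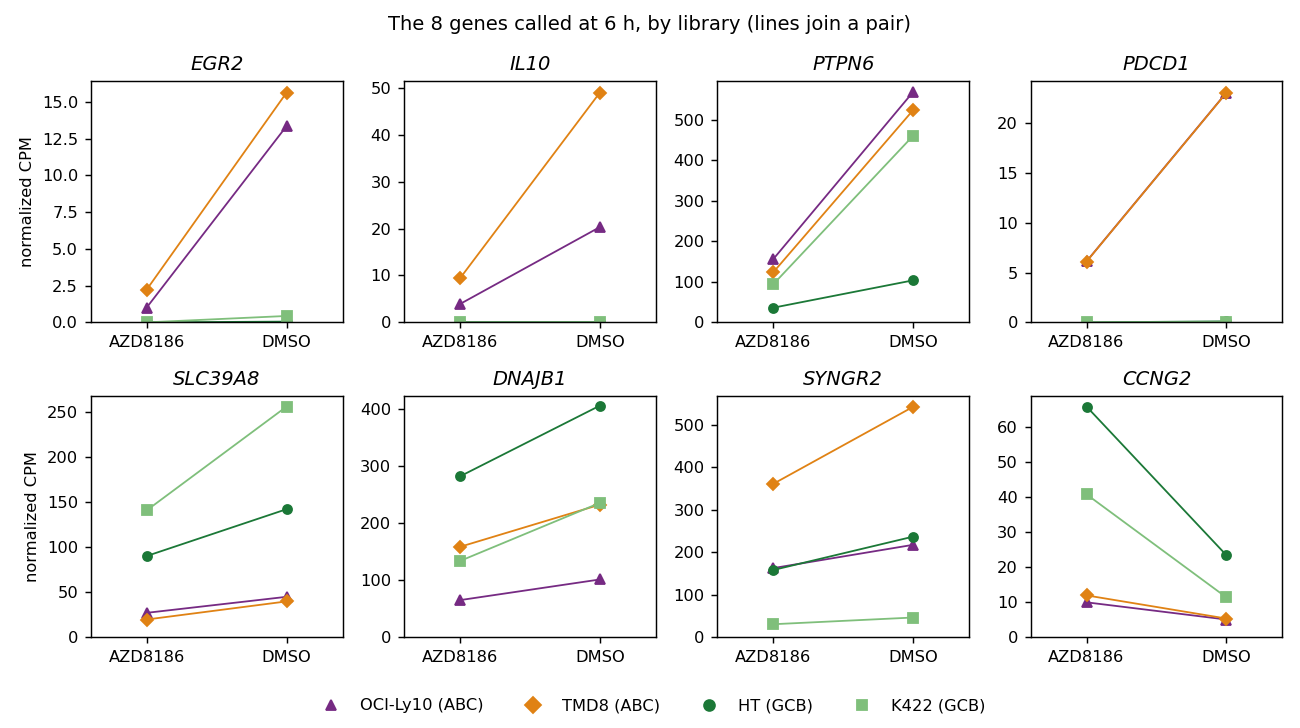
CPM of the 8 called genes in the AZD8186 and DMSO libraries of each cell line at 6 h, with a line joining each pair and axes from 0. The 4 lines of PTPN6, SLC39A8, DNAJB1 and SYNGR2 all drop toward AZD8186 and those of CCNG2 all climb toward it, while HT and K422 lie at or near 0 for IL10, EGR2 and PDCD1.

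All 8 genes were also called by DESeq2 and by limma-voom, and in a fit over all 30 libraries that shares the spread of every pair, but other settings took calls away. A minimum of 5 CPM in 4 libraries left 6 of the genes in the test and 1 called, PTPN6. PTPN6 was also the only 1 called by limma on log2(TPM + 1), and without the pairing by cell line edgeR called 0. Leaving out 1 pair of libraries took calls away too. Without the HT pair or the K422 pair, PTPN6 and IL10 were called, with adjusted p up to 0.179 and 0.201 for the 8 genes. Without the TMD8 pair, PTPN6, SLC39A8, DNAJB1 and CCNG2 were called, and without the OCI-Ly10 pair 0 of the 5 genes that still passed the filter were called, with adjusted p from 0.0742 to 0.102. Each of the 8 genes kept its direction under all of these settings in which it was measured.

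By the same rule for naming genes, the 9 next genes with a lower level in all 4 pairs included AMD1, a step of polyamine synthesis, with 60.0, 82.9, 64.2 and 112 CPM under AZD8186 in HT, K422, OCI-Ly10 and TMD8, against 86.2, 138, 91.2 and 192 CPM under DMSO. The AZD8186 library was lower in each line, and AMD1 had a fitted log2 change of -0.64 ± 0.074 (SE) at an adjusted p of 0.0511. The actin gene ACTG1, one of the most abundant transcripts, had log2 ratios of -0.40, -0.23, -0.21 and -0.29 (adjusted p = 0.0882). HMGCS1, an early step of cholesterol synthesis, had -0.59, -0.53, -0.32 and -0.58 (adjusted p = 0.0721), and MANF, secreted from a stressed endoplasmic reticulum, had -0.36, -0.56, -0.61 and -0.62 (adjusted p = 0.0721). HSPA1B, an inducible HSP70 gene with a near-identical copy in HSPA1A between which reads may be split, had -0.93, -1.21, -0.47 and -0.82 (adjusted p = 0.0668). The tetraspanin CD53, the Fc receptor-like gene FCRLB, the neddylation factor DCUN1D5 and CDK5R1, an activator of the kinase CDK5, completed the 9, with adjusted p from 0.0721 to 0.0882.

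Among genes with a higher level in all 4 pairs, SLAMF6, a receptor of lymphocyte contacts, had 17.9, 34.3, 2.65 and 0.919 CPM under AZD8186 in HT, K422, OCI-Ly10 and TMD8, against 8.43, 11.3, 1.13 and 0.399 CPM under DMSO. Its AZD8186 library was at least 2-fold higher in each line, although its level in TMD8 was under 1 CPM, and it missed the threshold, with a fitted log2 change of 1.32 ± 0.15 (SE) at an adjusted p of 0.0511. YPEL3, a growth suppressor, had log2 ratios of 1.29, 1.38, 0.60 and 1.40 (adjusted p = 0.0538), and HBP1, a repressor that slows entry into S phase, had 1.34, 1.94, 0.73 and 0.96 (adjusted p = 0.0882). TCL1A, which encodes a coactivator of AKT, had 9.72, 1.92, 174 and 722 CPM under AZD8186 in HT, K422, OCI-Ly10 and TMD8, against 4.88, 0.786, 121 and 405 CPM under DMSO. The lines differed widely in TCL1A, and each AZD8186 library was above its DMSO library (adjusted p = 0.0721). IKZF3 (Aiolos, a B-cell transcription factor), the ubiquitin ligase PELI1, TNRC6B of microRNA silencing, the kinase ICK, LETMD1, TRANK1, ZNF362, ZNF671, TXNIP and CENPF followed, with log2 fold changes from 0.47 to 0.87 and adjusted p from 0.0668 to 0.0882. At least a 2-fold difference in all 4 pairs was found for 4 lower genes, with the prior count, PTPN6, TNF, CCL3 and ETV5, and for 2 higher genes, SLAMF6 and the developmental factor OSR2. Few reads carried some of these ratios. Under AZD8186 and DMSO, HT had 3 and 10 counts of TNF, 1 and 7 of CCL3 and 0 and 4 of ETV5, and TMD8 had 1 and 12 of CCL3. OSR2, named after its values were seen, had 0.437, 3.94, 2.65 and 4.0 CPM under AZD8186 and 0.0514, 0.262, 1.01 and 0.999 CPM under DMSO in the same order of lines.

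Since the threshold left few calls, gene groups are given by how many members had 1 direction in all 4 pairs and by their median, beside the same over all genes tested. A log2 ratio below 0 in all 4 pairs was found for 1721 genes (15.3%) and above 0 for 1804 genes (16.0%), and all genes together had a median of 0.016 on the log2 scale. A sign was counted even where a gene had few reads in a line, so that shares of lists with such genes are less firm. The fit over all 30 libraries, which takes the spread from 15 pairs, called 490 genes lower (4.35%) and 284 higher (2.52%) at 6 h and gives a further count for each group. Those pairs are repeated times of the same 4 lines and not independent replicates. The p-values of that fit thus count more replicates than there are lines. Over all 11275 genes, DESeq2 called 414 lower and 284 higher, and limma-voom 38 lower and 28 higher. The list counts of these methods are to be read beside those totals, and a few calls in a list can be near the share over all genes. The lists were written with earlier results of these data known, they were not tested as sets, and only calls of single genes carry a test.

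**Figure D2:**
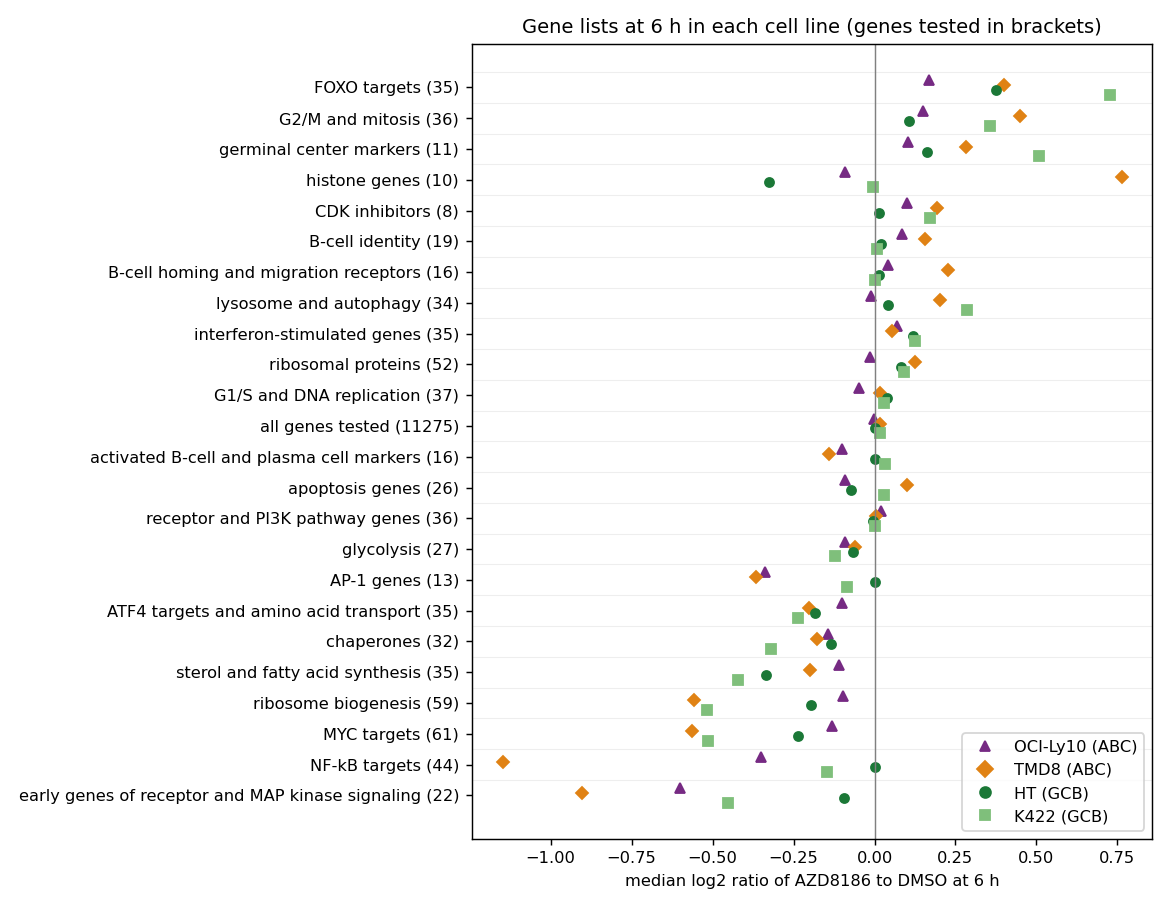
Median log2 ratio of AZD8186 to DMSO at 6 h of each gene list in each cell line, with the number of genes tested in brackets. FOXO targets and G2/M genes lie right of 0 in all 4 lines, MYC targets, ribosome biogenesis, sterol synthesis and chaperones left of 0 in all 4, and the NF-κB list spans from 0 in HT to -1.15 in TMD8. CDK inhibitors, germinal center markers, B-cell identity and interferon-stimulated genes also lie right of 0 in all 4 lines. Early genes, ATF4 targets and glycolysis genes also lie left of 0 in all 4.

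FOXO factors induce genes that slow the cell cycle, recycle cell components and feed back on PI3K. 21 of 35 (60.0%) FOXO targets were higher and 2 of 35 (5.71%) lower in all 4 pairs, with a list median of 0.39 and line medians of 0.37, 0.73, 0.17 and 0.40 in HT, K422, OCI-Ly10 and TMD8. In the same order of lines, 8, 8, 0 and 2 of the 35 genes had under 1 CPM in both libraries. edgeR called CCNG2 higher and 0 lower, with 19 higher and 1 lower at an unadjusted p under 0.05. DESeq2 called 13 higher, limma-voom 3, and the fit over all 30 libraries 6, all with 0 lower. PIK3IP1, which restrains PI3K itself, had 8.11, 25.1, 1.39 and 0.0656 CPM under AZD8186 in HT, K422, OCI-Ly10 and TMD8, against 3.44, 7.42, 0.950 and 0 CPM under DMSO. Its level was low in OCI-Ly10 and next to 0 in TMD8, and the GCB pairs carried the difference, with log2 ratios of 1.21 and 1.74 (adjusted p over the 4 lines = 0.0897). TXNIP, which limits glucose uptake, had log2 ratios of 0.96, 0.40, 0.71 and 0.93 (adjusted p = 0.0882), and PINK1, a kinase of mitochondrial quality control, had 0.33, 0.92, 0.63 and 1.0 (adjusted p = 0.0903). The CDK inhibitors CDKN1B, a FOXO target, and CDKN2C, which holds CDK4 and CDK6 in check, were higher in all 4 pairs, with 1.02, 1.07, 0.41 and 0.22 and 0.61, 1.16, 0.31 and 1.30 (adjusted p = 0.0926 and 0.0897). CDKN2D, RBL1 and RBL2, further brakes on entry into S phase, had log2 fold changes of 0.27, 0.10 and 0.20. Of 8 CDK inhibitors and related genes, 4 (50%) were higher and 1 (12.5%) lower in all 4 pairs, and edgeR called 0 (2 higher and 0 lower at an unadjusted p under 0.05), DESeq2 2 higher and limma-voom 0.

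The genes of the B-cell receptor and PI3K pathway had no common direction. 5 of 36 (13.9%) were higher and 4 of 36 (11.1%) lower in all 4 pairs, with a median of -0.048, and edgeR called 0 (4 higher and 2 lower at an unadjusted p under 0.05), against 1 higher by DESeq2 and 0 by limma-voom. PIK3R1, which encodes the regulatory subunit p85α, had 44.2, 20.4, 26.5 and 106 CPM under AZD8186 in HT, K422, OCI-Ly10 and TMD8, against 36.3, 17.3, 18.8 and 59.0 CPM under DMSO. It was higher in each line (adjusted p = 0.0965). ERBB2, a receptor kinase upstream of PI3K, had log2 ratios of 0.92, 0.60, 0.15 and 0.38 (adjusted p = 0.153), and DEPTOR, an inhibitor of mTOR, had 0.27 in HT and 0.81 in K422, with under 1 CPM in OCI-Ly10 and TMD8. EIF4EBP1, a translation repressor under mTOR, had -0.081, -0.40, -0.27 and -0.35 (adjusted p = 0.124). SGK1, which shares substrates with AKT, had 0.389, 0.0505, 0.883 and 3.21 CPM under AZD8186 and 0.103, 0, 3.74 and 19.0 CPM under DMSO, so that it was lower in the ABC lines and near 0 in the GCB lines.

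Early genes of receptor and MAP kinase signaling are induced within hours of a signal and are short-lived. 9 of 22 (40.9%) were lower and 0 higher in all 4 pairs, with a median of -0.58 and line medians of -0.10, -0.45, -0.60 and -0.90. Under 1 CPM in both libraries was found for 8 of the 22 genes in HT, 4 in K422, 2 in OCI-Ly10 and 3 in TMD8. The sign of such a ratio rests on few reads. edgeR called EGR2 lower and 0 higher (12 lower and 0 higher at an unadjusted p under 0.05), DESeq2 called 5 lower, limma-voom 3 and the fit over all 30 libraries 6, each with 0 higher. DUSP2, a phosphatase that turns off MAP kinases, had 14.8, 6.66, 52.1 and 42.3 CPM under AZD8186 in HT, K422, OCI-Ly10 and TMD8, against 22.5, 20.7, 134 and 254 CPM under DMSO. Each AZD8186 library was lower than its DMSO library, most in TMD8, with a fitted log2 change of -1.57 ± 0.28 (SE) at an adjusted p of 0.0897. ETV5, a factor downstream of ERK, had 0, 11.3, 2.84 and 0.459 CPM under AZD8186 in HT, K422, OCI-Ly10 and TMD8, against 0.206, 27.7, 8.20 and 1.13 CPM under DMSO. K422 had the most ETV5, and HT had 0 counts under AZD8186 and 4 under DMSO, with a fitted log2 change of -1.42 ± 0.22 (SE) at an adjusted p of 0.0882. CCL3, a chemokine with near-identical gene copies that leave its reads uncertain, had 0.0486, 0.505, 1.45 and 0.0656 CPM under AZD8186 and 0.360, 1.70, 11.6 and 0.799 CPM under DMSO, with at most 196 counts in a library (adjusted p = 0.0721). SRF, the serum response factor itself, had log2 ratios of -0.36, -0.40, -0.18 and -0.38 (adjusted p = 0.0903).

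Of 13 AP-1 genes, 4 (30.8%) were lower and 0 higher in all 4 pairs, with a median of -0.12. In HT and in K422, 4 of the 13 genes had under 1 CPM in both libraries, against 0 in OCI-Ly10 and 1 in TMD8. edgeR called 0 (6 lower and 0 higher at an unadjusted p under 0.05), DESeq2 2 lower, limma-voom 0 and the fit over all 30 libraries 4 lower. JUNB had 28.5, 71.8, 32.0 and 28.5 CPM under AZD8186 in HT, K422, OCI-Ly10 and TMD8, against 37.4, 95.2, 62.8 and 63.8 CPM under DMSO. It was lower in each line and more so in the ABC lines, with log2 ratios of -0.39, -0.41, -0.97 and -1.16 (adjusted p = 0.0903). JUN had -0.18, 0.038, -1.09 and -2.13 (adjusted p = 0.163), so that only the ABC pairs were 2-fold lower, and JUND had 0.39, 0.24, -0.61 and 0.15 (adjusted p = 0.898). The direction of JUND depended on the lines in the fit, with 0.045 over all 4, -0.073 without the HT pair and -0.012 without the K422 pair. BATF, an AP-1 partner of IRF4, had 599 and 227 CPM under AZD8186 in OCI-Ly10 and TMD8, against 765 and 509.8 CPM under DMSO, and next to 0 in HT and K422. BATF3 and FOSL2 had log2 fold changes of -1.03 and -1.59 (adjusted p = 0.114 and 0.123).

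NF-κB targets had their lowest median in TMD8. 14 of 44 (31.8%) were lower and 1 of 44 (2.27%) higher in all 4 pairs, with a median of -0.46, and the line medians were 0, -0.15, -0.35 and -1.15. At least a 2-fold lower level was found for 28 of the 44 genes in TMD8 (background 3.79%), 5 in OCI-Ly10 (1.17%), 5 in K422 (2.18%) and 3 in HT (0.896%), and 16 of the genes in HT, 17 in K422 and 1 each in OCI-Ly10 and TMD8 had under 1 CPM in both libraries. At least a 2-fold higher level had a background of 4.28% in TMD8, 1.15% in OCI-Ly10, 2.41% in K422 and 1.44% in HT. edgeR called IL10 lower and 0 higher (22 lower and 1 higher at an unadjusted p under 0.05), DESeq2 10 lower, limma-voom 6 and the fit over all 30 libraries 12, each with 0 higher. TNF, a cytokine that NF-κB both follows and feeds, had 0.146, 1.56, 3.97 and 5.25 CPM under AZD8186 in HT, K422, OCI-Ly10 and TMD8, against 0.514, 10.6, 9.56 and 78.2 CPM under DMSO. It was at least 2-fold lower in every line (80 counts under AZD8186 and 1175 under DMSO in TMD8, but only 3 and 10 in HT), with a fitted log2 change of -2.70 ± 0.44 (SE) at an adjusted p of 0.0897.

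Among the inhibitors of NF-κB that NF-κB itself induces, none passed the test over the 4 lines at 6 h. NFKBIE had 10.9, 7.06, 105 and 42.3 CPM under AZD8186 in HT, K422, OCI-Ly10 and TMD8, against 14.3, 12.8, 174 and 118 CPM under DMSO. It was lower in each line, with log2 ratios of -0.39, -0.85, -0.73 and -1.48 (adjusted p = 0.0897). NFKBID had -1.78 in OCI-Ly10 and -2.39 in TMD8 and about 1 CPM or less in the GCB lines (adjusted p = 0.0917 over the 4 lines and 0.0311 over the ABC pairs), and NFKBIA had 0.12, -0.14, -0.38 and -1.89 (adjusted p = 0.296). ICAM1, an adhesion molecule, had 14.1 and 17.3 CPM under AZD8186 in OCI-Ly10 and TMD8, against 22.6 and 47.4 CPM under DMSO (adjusted p = 0.0905). The anti-apoptotic genes CFLAR, BCL2L1 and TNFAIP3 were lower in TMD8, with -1.43, -1.17 and -1.07, and had log2 ratios of -0.43, -0.58 and -0.024 in OCI-Ly10. CFLAR and BCL2L1 were higher in HT and K422, and none of these 3 passed the test (adjusted p = 0.438, 0.484 and 0.412). Without the TMD8 pair, TNFAIP3 turned to 0.11 in place of -0.40. IRF4, the master factor of ABC cells, had 447 and 443 CPM under AZD8186 in OCI-Ly10 and TMD8, against 496 and 759 CPM under DMSO (adjusted p = 0.189). IL6 was below the filter, with 1, 0, 5 and 1 counts under AZD8186 in HT, K422, OCI-Ly10 and TMD8 and 0, 0, 16 and 66 counts under DMSO.

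**Figure D3:**
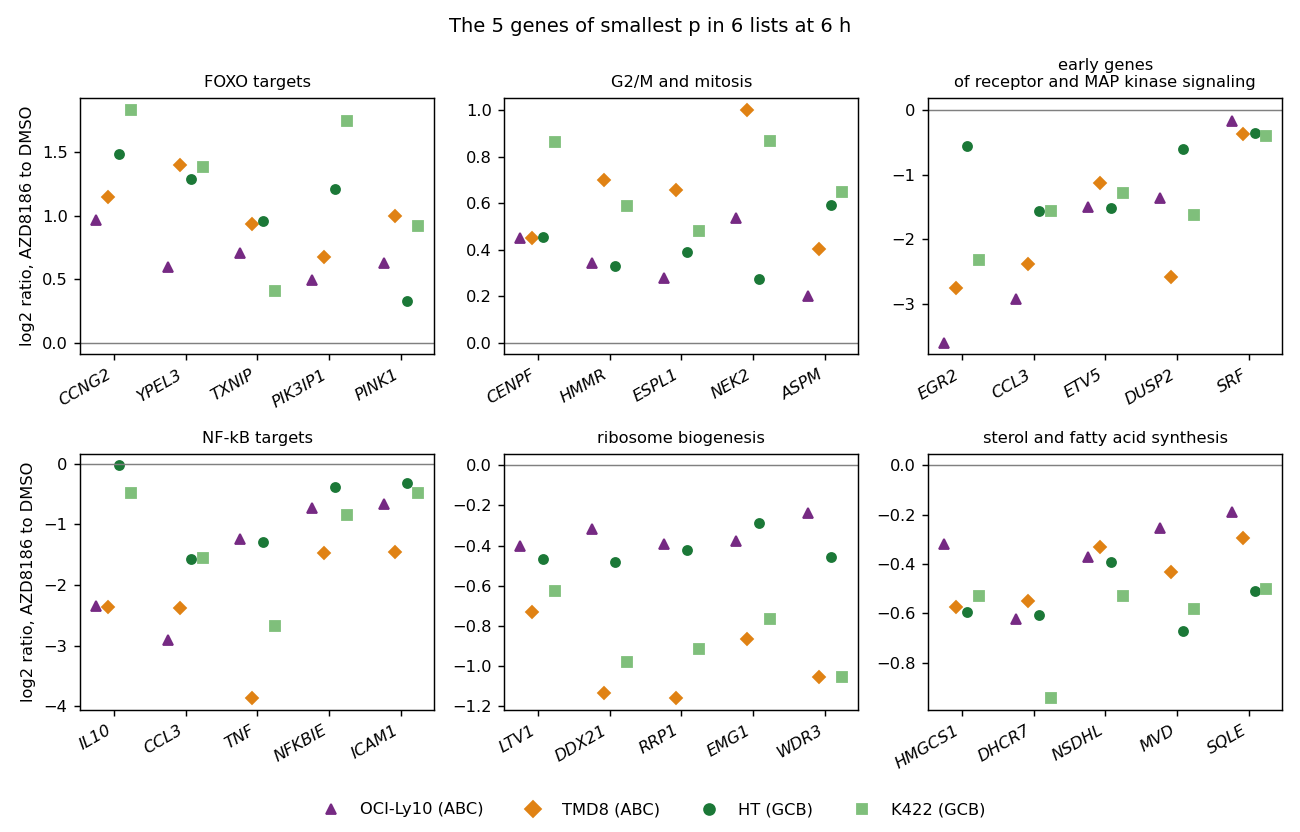
Log2 ratio of AZD8186 to DMSO at 6 h in each cell line for the 5 genes of smallest p in each of 6 lists. Points of the FOXO and G2/M panels lie above 0 and nearly all of those elsewhere under 0, and CCNG2 spans 0.96 to 1.83 and HMMR 0.33 to 0.70. The choice by smallest p favors genes with 1 direction in all lines, so that the panels do not show the lists as a whole.

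Genes of ribosome production were lower in most members of both lists that hold them. 45 of 61 (73.8%) MYC targets, many of which also build ribosomes, were lower in all 4 pairs and 4 (6.56%) were higher, with a median of -0.40 and line medians of -0.24, -0.51, -0.13 and -0.56 in HT, K422, OCI-Ly10 and TMD8. edgeR called 0 (48 lower and 3 higher at an unadjusted p under 0.05), limma-voom 1 lower, DESeq2 30 lower and the fit over all 30 libraries 29 lower. 44 of 59 (74.6%) ribosome biogenesis genes were lower and 1 (1.69%) higher in all 4 pairs, with a median of -0.37 and line medians of -0.20, -0.52, -0.10 and -0.56. Here edgeR called 0 (43 lower and 1 higher at an unadjusted p under 0.05), limma-voom 1 lower, DESeq2 23 lower and the fit over all 30 libraries 28 lower. PPAN, needed for the large ribosomal subunit, had 62.2, 40.1, 109 and 70.0 CPM under AZD8186 in HT, K422, OCI-Ly10 and TMD8, against 89.1, 80.1, 179 and 231 CPM under DMSO. Each AZD8186 library was lower, most in TMD8, with a fitted log2 change of -0.99 ± 0.18 (SE) at an adjusted p of 0.0897. DDX21, an RNA helicase of the nucleolus, had log2 ratios of -0.48, -0.98, -0.32 and -1.13 (adjusted p = 0.0897), LTV1, which helps to export the small subunit, had -0.47, -0.63, -0.40 and -0.73 (adjusted p = 0.0882), and NDUFAF4, an assembly factor of respiratory complex I, had -0.41, -0.61, -0.40 and -0.72 (adjusted p = 0.0897). GRWD1, RRP9, MYBBP1A, RRP1, EMG1 and WDR3 were lower in all 4 pairs, with log2 fold changes from -0.74 to -0.44. MYC itself had 132, 204, 159.8 and 60.4 CPM under AZD8186 in HT, K422, OCI-Ly10 and TMD8, against 159, 251, 162 and 156 CPM under DMSO. It was lower in each line, by 1.37 on the log2 scale in TMD8 and by 0.29 or less in the others, and did not pass the test (adjusted p = 0.221).

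The ribosomal proteins and translation factors, in contrast to the factors that assemble ribosomes, had log2 ratios near 0 at 6 h. 18 of 52 (34.6%) were higher and 0 lower in all 4 pairs, with a median of 0.070 and line medians of 0.082, 0.091, -0.015 and 0.12, and edgeR called 0 (9 higher and 0 lower at an unadjusted p under 0.05), DESeq2 2 higher and limma-voom 0. EEF2, the elongation factor that moves the ribosome, had log2 ratios of 0.28, 0.46, 0.12 and 0.20 (adjusted p = 0.0911), and PABPC1, which binds poly(A) tails, had 0.11, 0.26, 0.23 and 0.23 (adjusted p = 0.0897). EEF1A1, RPS2 and RPLP1 had log2 fold changes of 0.15, 0.14 and 0.11. Reads of such genes may be split with near-identical copies elsewhere in the genome, so that these values are uncertain.

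SREBP factors drive sterol and fatty acid synthesis, and ATF4 drives amino acid supply. 20 of 35 (57.1%) sterol and fatty acid genes were lower and 0 higher in all 4 pairs, with a median of -0.30 and line medians of -0.33, -0.42, -0.11 and -0.20. edgeR called 0 (21 lower and 0 higher at an unadjusted p under 0.05), DESeq2 11 lower, limma-voom 2 and the fit over all 30 libraries 7. DHCR7, the last enzyme of cholesterol synthesis in one of its routes, had 54.6, 47.4, 0 and 97.5 CPM under AZD8186 in HT, K422, OCI-Ly10 and TMD8, against 83.1, 91.4, 0.0594 and 143 CPM under DMSO. It was lower in the 3 lines that express it and next to 0 in OCI-Ly10 (adjusted p = 0.0882). NSDHL, MVD and SQLE, further enzymes of the pathway, had log2 fold changes of -0.41, -0.49 and -0.38, with all 4 ratios of each below 0. Of 35 ATF4 targets and amino acid transporters, 18 (51.4%) were lower and 2 (5.71%) higher in all 4 pairs, with a median of -0.20. edgeR called 0 of these (14 lower and 2 higher at an unadjusted p under 0.05), DESeq2 6 lower and 1 higher, and limma-voom 0. The glutamine transporter SLC1A5 had 194, 149, 511 and 173 CPM under AZD8186 in HT, K422, OCI-Ly10 and TMD8, against 287, 313, 658 and 482 CPM under DMSO. Each AZD8186 library was lower, with a fitted log2 change of -0.87 ± 0.17 (SE) at an adjusted p of 0.0903. ATF4 itself had log2 ratios of -0.28, -0.41, -0.30 and -0.35 and the AKT-binding pseudokinase TRIB3 -0.43, -1.37, -0.32 and -0.92 (adjusted p = 0.0897 and 0.0914), while GARS, a tRNA synthetase, and SLC38A1, an amino acid carrier, had log2 fold changes of -0.25 and -0.41.

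Of 27 glycolysis genes, 9 (33.3%) were lower and 2 (7.41%) higher in all 4 pairs, with a median of -0.090. edgeR called 0 (7 lower and 1 higher at an unadjusted p under 0.05), DESeq2 3 lower and limma-voom 0. The hexokinase HK2 had 41.9, 84.5, 51.3 and 74.5 CPM under AZD8186 in HT, K422, OCI-Ly10 and TMD8, against 59.7, 169.7, 59.3 and 178 CPM under DMSO. It was lower in each line and about 2-fold lower in K422 and TMD8, with a fitted log2 change of -0.75 ± 0.17 (SE) at an adjusted p of 0.0914. PFKFB3, which makes an activator of glycolysis, had -0.18, -0.60, -0.59 and -0.68 (adjusted p = 0.0914), and LDHA, HK1 and PFKP had log2 fold changes of -0.19, -0.25 and -0.37. 20 of 32 (62.5%) chaperones were lower and 0 higher in all 4 pairs, with a median of -0.22 and line medians of -0.13, -0.32, -0.14 and -0.18. edgeR called DNAJB1 lower and 0 higher (19 lower and 0 higher at an unadjusted p under 0.05), DESeq2 11 lower, limma-voom 4 and the fit over all 30 libraries 6. HSPA5 (BiP), the main chaperone of the endoplasmic reticulum, had 769, 380.0, 338 and 301 CPM under AZD8186 in HT, K422, OCI-Ly10 and TMD8, against 1162, 756, 452 and 702 CPM under DMSO. Each AZD8186 library was lower, with a fitted log2 change of -0.81 ± 0.13 (SE) at an adjusted p of 0.0882, and DNAJB11, a partner of HSPA5, had log2 ratios of -0.30, -0.27, -0.29 and -0.57 (adjusted p = 0.0903).

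Most genes of mitosis lay above 0 in all 4 pairs, while those of G1/S split. 23 of 36 (63.9%) G2/M genes were higher and 1 (2.78%) lower in all 4 pairs, with a median of 0.25 and line medians of 0.11, 0.36, 0.15 and 0.45. edgeR called 0 (22 higher and 0 lower at an unadjusted p under 0.05), DESeq2 13 higher, limma-voom 1 and the fit over all 30 libraries 4. CENPF, a kinetochore protein, had 87.8, 160.4, 158 and 148 CPM under AZD8186 in HT, K422, OCI-Ly10 and TMD8, against 64.1, 88.1, 115 and 109 CPM under DMSO. It was higher in each line, with 0.45, 0.86, 0.45 and 0.45, and K422 had the largest ratio (adjusted p = 0.0882). NEK2, a kinase of the centrosome, had log2 ratios of 0.27, 0.87, 0.54 and 1.0, HMMR, which binds the spindle, 0.33, 0.59, 0.34 and 0.70, and ESPL1 (separase) 0.39, 0.48, 0.28 and 0.66 (adjusted p = 0.0897 each). ASPM had a log2 fold change of 0.46. Of 37 genes of G1/S and DNA replication, 8 (21.6%) were higher and 7 (18.9%) lower in all 4 pairs, with a median of 0.051. edgeR called 0 (7 higher and 5 lower at an unadjusted p under 0.05), DESeq2 2 lower and limma-voom 1 lower. CDC25A, which activates CDK2, had -0.38, -0.44, -0.16 and -0.52 (adjusted p = 0.0914) and cyclin D2 (CCND2), at or near 0 in HT and K422, had 154 and 161 CPM under AZD8186 in OCI-Ly10 and TMD8, against 223 and 227 CPM under DMSO. The replication genes MCM5, MCM2 and RRM1 had log2 fold changes of 0.19, 0.17 and 0.19.

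B-cell genes lay in both directions. Of 19 B-cell identity genes, 5 (26.3%) were higher and 2 (10.5%) lower in all 4 pairs, with a median of 0.13, and edgeR called 0 (4 higher and 2 lower at an unadjusted p under 0.05), DESeq2 3 higher and 1 lower, limma-voom 1 higher. IKZF3 had 214, 166, 251 and 203 CPM under AZD8186 in HT, K422, OCI-Ly10 and TMD8, against 169.8, 114, 187 and 136 CPM under DMSO. It was higher in each line (adjusted p = 0.0721), as were the tetraspanin CD37 and the kinase BLK, with log2 fold changes of 0.36 and 0.44, whereas SPIB, a factor of ABC identity, had -0.32, -1.01, -0.25 and -0.37 (adjusted p = 0.0970) and CD72 -0.41. Of 11 germinal center markers, 3 (27.3%) were higher and 1 (9.09%) lower in all 4 pairs, with a median of 0.24, and edgeR called 0 (3 higher and 1 lower at an unadjusted p under 0.05), DESeq2 3 higher and 1 lower, limma-voom 2 higher and 1 lower. MYBL1 (A-MYB) had 48.0, 45.1, 0.756 and 1.44 CPM under AZD8186 in HT, K422, OCI-Ly10 and TMD8, against 30.0, 15.6, 0.594 and 0.732 CPM under DMSO. Its level was high in the GCB lines and near 1 CPM in the ABC lines, and each AZD8186 library was above its DMSO library (adjusted p = 0.0897). MME and GCSAM had log2 ratios of 0.50, 0.51, 0.77 and 0.45 and 1.25, 1.25, 0.30 and 1.76 (adjusted p = 0.0897 and 0.0903), while SERPINA9, a protease inhibitor of germinal center cells, had 93.4, 41.0, 0.0630 and 9.64 CPM under AZD8186 in HT, K422, OCI-Ly10 and TMD8, against 181, 116, 0.178 and 11.8 CPM under DMSO. SERPINA9 was lower in each line, with next to none in OCI-Ly10, so that germinal center markers did not share a direction.

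Of 16 activated B-cell and plasma cell markers, 2 (12.5%) were lower and 2 (12.5%) higher in all 4 pairs, with a median of -0.022, and edgeR called IL10 (6 lower and 1 higher at an unadjusted p under 0.05), DESeq2 and limma-voom 2 lower each. CD44, an adhesion receptor at or near 0 in HT and K422, had 587 and 548 CPM under AZD8186 in OCI-Ly10 and TMD8, against 766 and 1062 CPM under DMSO (adjusted p = 0.0944), and the kinase PIM1 had 0.54, 0.76, 0.38 and 0.052 (adjusted p = 0.130). Of 16 receptors of homing and migration, 3 (18.8%) were higher and 2 (12.5%) lower in all 4 pairs, with a median of 0.11, and edgeR called 0 (3 higher and 4 lower at an unadjusted p under 0.05), DESeq2 1 lower and limma-voom 0. The integrin chain ITGB2 had 47.1, 225, 30.1 and 22.2 CPM under AZD8186 in HT, K422, OCI-Ly10 and TMD8, against 62.4, 414, 38.9 and 30.7 CPM under DMSO. It was lower in each line (adjusted p = 0.0897), and ITGA4 had a log2 fold change of -0.35, while P2RY8, which confines B cells to the germinal center, had 0.027, 0.27, 0.60 and 0.98 (adjusted p = 0.137). GPR183 had -0.29 in OCI-Ly10 and -1.06 in TMD8.

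Of 26 apoptosis genes, 6 (23.1%) were lower and 4 (15.4%) higher in all 4 pairs, with a median of -0.031, and edgeR called 0 (6 lower and 4 higher at an unadjusted p under 0.05), DESeq2 1 in each direction and limma-voom 0. The pro-apoptotic BCL2L11 (BIM), a FOXO target, had 187, 88.1, 91.0 and 159 CPM under AZD8186 in HT, K422, OCI-Ly10 and TMD8, against 144, 75.4, 81.9 and 129 CPM under DMSO. It was higher in each line (adjusted p = 0.0970), whereas BAK1 and BID were lower in each line, with log2 fold changes of -0.31 and -0.28. BCL2A1, a survival gene under NF-κB, had 81.1 and 77.3 CPM under AZD8186 in OCI-Ly10 and TMD8, against 109.8 and 187 CPM under DMSO (adjusted p = 0.0916). Of 35 interferon-stimulated genes, 11 (31.4%) were higher and 2 (5.71%) lower in all 4 pairs, with a median of 0.072, and edgeR called 0 (9 higher and 0 lower at an unadjusted p under 0.05), DESeq2 3 higher and limma-voom 0. The antiviral enzyme OAS1 had 8.74, 78.1, 416 and 44.2 CPM under AZD8186 in HT, K422, OCI-Ly10 and TMD8, against 3.70, 57.9, 303 and 30.0 CPM under DMSO. It was higher in each line (adjusted p = 0.0905), and SAMD9, STAT2, IFIT2 and IFI6 had log2 fold changes of 0.55, 0.75, 0.83 and 0.32. Of 34 genes of lysosomes and autophagy, 9 (26.5%) were higher and 3 (8.82%) lower in all 4 pairs, with a median of 0.091, and edgeR called 0 (5 higher and 1 lower at an unadjusted p under 0.05), DESeq2 3 higher and limma-voom 0. ATP6V1H of the proton pump and the autophagy gene ATG2A were higher in each line, with 0.39 and 0.50, and ULK1, the kinase that starts autophagy, had 0.57, 1.23, 0.17 and 0.23 (adjusted p = 0.162), next to CTSS with 0.33.

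Of the markers of other cells, 6 T-cell, 1 myeloid and 4 stromal or epithelial genes passed the filter, and edgeR called 0 of them (1 higher at an unadjusted p under 0.05), as did DESeq2 and limma-voom. That gene was PECAM1, an adhesion receptor that leukocytes carry too, with 1.80, 6.51, 3.21 and 2.43 CPM under AZD8186 in HT, K422, OCI-Ly10 and TMD8, against 0.0514, 1.09, 1.66 and 0.666 CPM under DMSO. It was at low counts and higher in each line (adjusted p = 0.0911). The T-cell genes CD3G and CD247 had log2 fold changes of 0.31 and -0.19, LCK -0.25, CD3D -0.15, CD3E 0.31, DCN 0.25, CD68 0.037 and the keratin genes KRT8 and KRT18 -0.022 and -0.15, each with an adjusted p of 0.357 or more. The signs of DCN, CD68, KRT8 and KRT18 changed under other settings. Of 10 histone genes, most of whose transcripts carry no poly(A) tail, 1 (10.0%) was higher in all 4 pairs, and HIST2H2BE and HIST1H2AC reached 18.4 and 40.6 CPM in TMD8 under AZD8186, against 10.3 and 18.4 CPM under DMSO. edgeR, DESeq2 and limma-voom called 0 histone genes (2 higher and 0 lower at an unadjusted p under 0.05), and HIST1H1C, HIST1H2BK and H2AFZ had log2 fold changes of 0.12, 0.10 and -0.063. Of 20 ribosomal RNA and MTRNR2L genes, which are nuclear copies of mitochondrial ribosomal RNA, 1 (5.0%) was higher and 0 were lower in all 4 pairs, and edgeR, DESeq2 and limma-voom called 0 (1 lower and 0 higher at an unadjusted p under 0.05). MTRNR2L1, MTRNR2L2, MTRNR2L3 and MTRNR2L8 had log2 fold changes of 0.21, 0.23, 0.22 and 0.21, uncertain as their reads may be shared.

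The size of the response differed between lines. At least a 2-fold lower level was found for 427 genes (3.79%) in TMD8, 246 (2.18%) in K422, 132 (1.17%) in OCI-Ly10 and 101 (0.896%) in HT, and a 2-fold higher level for 483 (4.28%), 272 (2.41%), 130 (1.15%) and 162 (1.44%) in the same lines. The TMD8 pair also had the highest share of ribosomal RNA and the lowest correlation of its libraries, and their part in its larger count was not tested. Across 9468 genes, the log2 ratios of lines of 1 subtype correlated at 0.449 (HT and K422) and 0.446 (OCI-Ly10 and TMD8), and those of lines of different subtypes at 0.172 to 0.311. These are descriptions across genes, which are not independent replicates, and the pairs share no library. In HT the largest ratios per direction, among genes of at least 5 CPM, included PTPN6 and PTAFR on the lower side (-1.52 and -1.20) and BACH2, a B-cell repressor, and IFI16 on the higher (2.12 and 1.63). K422 shared PTAFR, the receptor of platelet-activating factor (-2.04), and BACH2 (3.29), and its lowest ratios included TNF and LTA, which encodes lymphotoxin (-2.68 and -2.66). OCI-Ly10 had EGR2, its relative EGR1 and IL4I1, an enzyme that degrades amino acids (-3.59, -3.12 and -2.51), and TMD8 had IL4I1, LTA and TNF (-5.30, -4.06 and -3.87). BACH2, PTAFR, LTA, EGR1 and IL4I1 were named after their values were seen.

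Fitted by subtype, with 2 pairs each, the ABC lines had 8 lower genes (0.0710%) and 0 higher (0%), and the GCB lines had 1 lower (0.00887%) and 3 higher (0.0266%). PTPN6 fell in each subtype, by 1.98 on the log2 scale in ABC (adjusted p = 0.0268) and by 1.92 in GCB (adjusted p = 0.0371), and the difference of -0.056 (SE 0.24) did not pass (adjusted p = 0.999). In ABC, IL10, JUNB, NFKBID, WDR91 of endosomes, DHRS9, a retinol dehydrogenase, NETO2 and the ribosomal RNA copy RNA28SN5 also fell, with log2 fold changes of -2.38, -1.06, -2.11, -1.78, -2.23, -1.81 and -6.39. RNA28SN5 had 0 CPM in both OCI-Ly10 libraries, so that its fall in ABC rested on the TMD8 pair alone. DHRS9 and NETO2 were named after their values were seen. In GCB, CCNG2, RASSF6, a candidate tumor suppressor, and IFI16 rose, with 1.66, 2.10 and 1.60. The 0 higher genes in ABC stood beside 803 higher and 967 lower at an unadjusted p under 0.05, against 843 higher and 917 lower in GCB. The calls depended on single pairs, and with 1 pair left in a subtype the fit assumes that this pair varies like those of the other subtype. Without the OCI-Ly10 pair ABC had 683 lower and 473 higher genes, on TMD8 alone, and GCB 571 and 416. Without the TMD8 pair ABC had 10 lower and 4 higher genes and GCB 501 and 354. Without the K422 pair ABC had 4 lower and 0 higher and edgeR called 0 in GCB (129 lower and 206 higher at an unadjusted p under 0.05), and without the HT pair ABC had 9 lower and 0 higher and GCB 5 and 7.

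The difference between the subtypes, tested as the ABC effect minus the GCB effect, passed for 2 lower genes (0.0177%) and 0 higher (0%), with 396 lower and 419 higher at an unadjusted p under 0.05. IFI16, a sensor of DNA, had 264 and 207 CPM under AZD8186 in OCI-Ly10 and TMD8, against 264 and 199 CPM under DMSO. In HT and K422 it had 26.4 and 43.5 CPM under AZD8186, against 8.48 and 14.7 CPM under DMSO. IFI16 (chromosome 1, 158999968 to 159055155, plus strand) thus was higher under AZD8186 in both GCB lines and close to its DMSO level in the ABC lines, whose level was far above that of the GCB lines throughout, and the difference was -1.57 (SE 0.13, adjusted p = 0.0312). Without the K422 pair this difference had an adjusted p of 0.436 and without the HT pair 0.112. RNA28SN5 had 134, 0, 0 and 8.46 CPM under AZD8186 and 401, 0, 0 and 711 CPM under DMSO, so that K422 and OCI-Ly10 were at 0 and the difference of -4.81 (SE 0.21, adjusted p = 0.0312) rested on HT and TMD8. It is 1 of several near-identical copies of 28S ribosomal RNA between which RSEM splits reads, and its values are uncertain.

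Of the genes next in order, RASSF6 and UBALD2 were higher under AZD8186 in the GCB lines, and TNFAIP8, an NF-κB target that protects from death, and WDR91 were lower in the ABC lines (adjusted p = 0.163 each for the difference). UBALD2 had log2 ratios of -0.63 and -0.33 in OCI-Ly10 and TMD8 and of 1.04 and 1.89 in HT and K422, and TNFAIP8 of -0.47 and -0.87 and of 0.66 and 0.76. In the other direction, INPP5D, which encodes the lipid phosphatase SHIP1 that degrades PIP3, had 228 and 166 CPM under AZD8186 in OCI-Ly10 and TMD8, against 179 and 101 CPM under DMSO. In HT and K422 INPP5D had 45.6 and 120.4 CPM under AZD8186, against 67.9 and 202 CPM under DMSO. The ABC pairs were thus above 0 and the GCB pairs below it, as they were for DDIT4, an inhibitor of mTORC1, with 0.19 and 0.41 in OCI-Ly10 and TMD8 and -0.94 and -0.86 in HT and K422. GAS7, ADGRG5, FAM43A and LDLRAD4 had the same order, with differences of 1.56, 2.15, 1.73 and 1.54, and none of the 6 passed (adjusted p from 0.163 to 0.176).

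**Figure D4:**
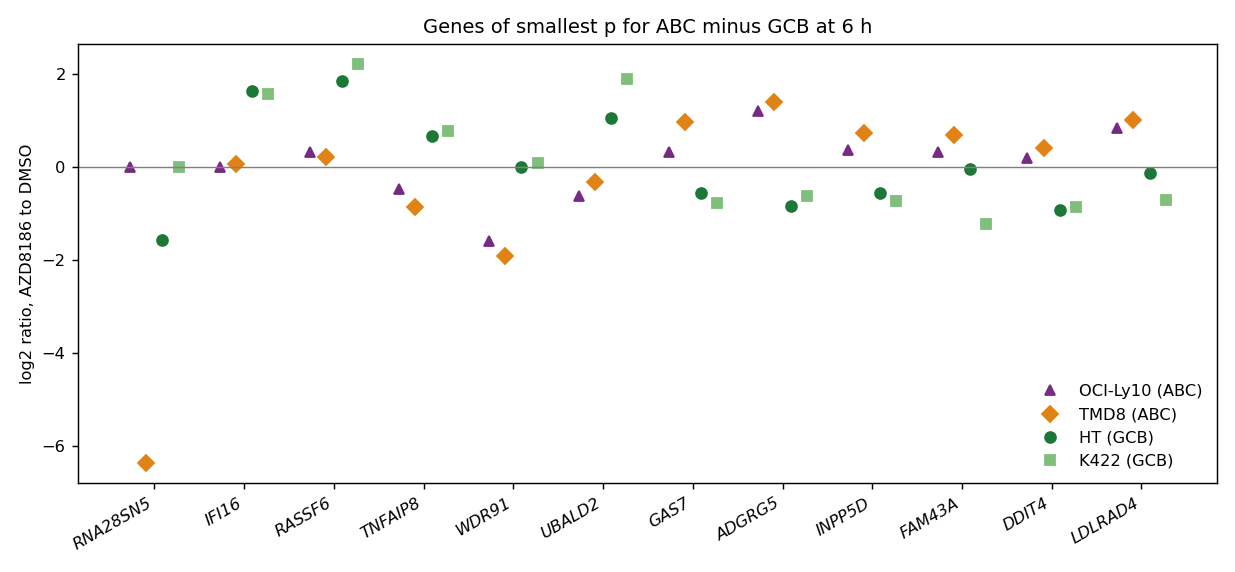
Log2 ratio of AZD8186 to DMSO at 6 h in each line for the 6 genes of smallest p per direction in ABC minus GCB. HT and K422 lie above OCI-Ly10 and TMD8 for IFI16, RASSF6, TNFAIP8, WDR91 and UBALD2 and below them for the 6 genes on the right, and RNA28SN5 has reads in HT and TMD8 only.

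Against the later time points of the same lines, 12, 18 and 24 h (TMD8 has no 12 h libraries), 5 chaperones and 5 glycolysis genes stood higher at 6 h, and PTPN6 and JCHAIN stood lower. The difference between the treatment effect at 6 h and at later times was fitted over all 30 libraries with the pair as a block and an effect of each line, and 121 of 11274 genes were lower (1.07%) and 39 higher (0.346%) at 6 h relative to later. The later pairs are repeated times of the same lines and not independent replicates. The p-values of this fit and the n of later pairs thus count more replicates than there are lines. PTPN6 had log2 ratios of -1.51, -0.94, -0.81 and -0.63 at 6, 12, 18 and 24 h in HT and -2.32, -2.22, -1.83 and -1.47 in K422. In OCI-Ly10 PTPN6 had -1.86, -1.25, -1.15 and -1.28, and in TMD8 -2.08, -0.31 and -0.50 at 6, 18 and 24 h. The ratio was lowest at 6 h in every line, and the difference was -0.86 (SE 0.15, adjusted p = 0.0109), with a mean ratio of -1.94 ± 0.34 at 6 h (SD, n = 4 pairs) and -1.13 ± 0.58 later (SD, n = 11 pairs). JCHAIN, the joining chain of secreted antibodies, had log2 ratios of 0.43, 1.08, 0.93 and 0.96 in HT, 1.35, 2.50, 2.82 and 2.87 in K422, -0.49, 0.98, 2.14 and 2.17 in OCI-Ly10 and 0.71, 2.25 and 2.30 in TMD8 in the order of their times. The ratio at 6 h was the lowest in every line, and the difference was -1.28 (SE 0.17, adjusted p = 0.00405).

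HSP90AA1, a cytosolic chaperone, stood higher at 6 h than later, with -0.12 ± 0.19 at 6 h and -0.72 ± 0.29 later, a difference of 0.58 (SE 0.10, adjusted p = 0.00923). HSP90AB1, the mitochondrial chaperones HSPD1 and HSPA9, asparagine synthetase (ASNS) and BCAT1, which degrades branched-chain amino acids, had mean ratios from -0.19 to 0.031 at 6 h and from -0.61 to -0.40 later, with differences of 0.42, 0.50, 0.39, 0.44 and 0.43 in this order of names. Of the lists, 5 of 32 chaperones and 5 of 27 glycolysis genes were called higher at 6 h than later and 0 lower (background 0.346% higher and 1.07% lower), and their median ratios were -0.22 and -0.10 at 6 h and -0.39 and -0.29 later. TCL1B, a relative of TCL1A, the actin-capping gene CAPG, the mitochondrial carrier UCP2, the taste receptor TAS1R3 and CORO1B, a coronin of the actin network, stood lower at 6 h, with differences of -1.30, -0.68, -0.72, -1.29 and -0.57 (adjusted p = 0.00405 each). UCP2 had mean ratios of 0.050 ± 0.26 at 6 h and 0.80 ± 0.29 later, and its ratio at 6 h was the lowest of each line.

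Over time the medians of the lists took different courses, which are given as descriptions. NF-κB targets had medians of -0.33, -0.45, -0.35 and -0.32 at 6, 12, 18 and 24 h in OCI-Ly10 and of -1.12, -0.048 and -0.11 at 6, 18 and 24 h in TMD8, so that the low value of TMD8 stood at 6 h alone. Against later times 4 of the 43 NF-κB targets tested were called lower at 6 h and 0 higher. Over all genes 1.07% were called lower and 0.346% higher, which is the background for the counts below too. MYC targets had -0.23, -0.31, -0.31 and -0.32 in HT, -0.54, -0.66, -0.60 and -0.65 in K422, -0.13, -0.18, -0.33 and -0.34 in OCI-Ly10 and -0.56, -0.26 and -0.076 in TMD8. Of 61 MYC targets, 3 were called higher at 6 h than later and 0 lower. FOXO targets had 0.38, 0.43, 0.56 and 0.63 in HT, 0.70, 0.84, 0.92 and 0.96 in K422, 0.17, 0.29, 0.37 and 0.46 in OCI-Ly10 and 0.41, 0.35 and 0.18 in TMD8. The 6 h median was the lowest of the course in HT, K422 and OCI-Ly10 and the highest in TMD8. G2/M genes had 0.11, 0.19, 0.23 and 0.23 in HT, 0.33, 0.26, 0.16 and -0.37 in K422, 0.15, 0.15, -0.019 and -0.31 in OCI-Ly10 and 0.46, -0.27 and -0.42 in TMD8, above 0 at 6 h in all 4 lines and below 0 at 24 h in all but HT. Ribosomal proteins had 0.068, 0.18, 0.39 and 0.60 in K422, -0.013, 0.29, 0.47 and 0.56 in OCI-Ly10 and 0.13, 0.47 and 0.53 in TMD8. In HT they changed less, with 0.088, 0.12, 0.045 and 0.15. Interferon-stimulated genes had 0.10, 0.39, 1.08 and 2.0 in K422 and 0.13, 0.25, 0.36 and 0.43 in HT. Their medians were 0.073, 0.21, 0.12 and 0.18 in OCI-Ly10 and 0.062, 0.96 and 0.30 in TMD8, so that the steep course was that of K422. Of 52 ribosomal proteins 4, and of 35 interferon-stimulated genes 2, were called lower at 6 h than later, with 0 higher in either list.

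**Figure D5:**
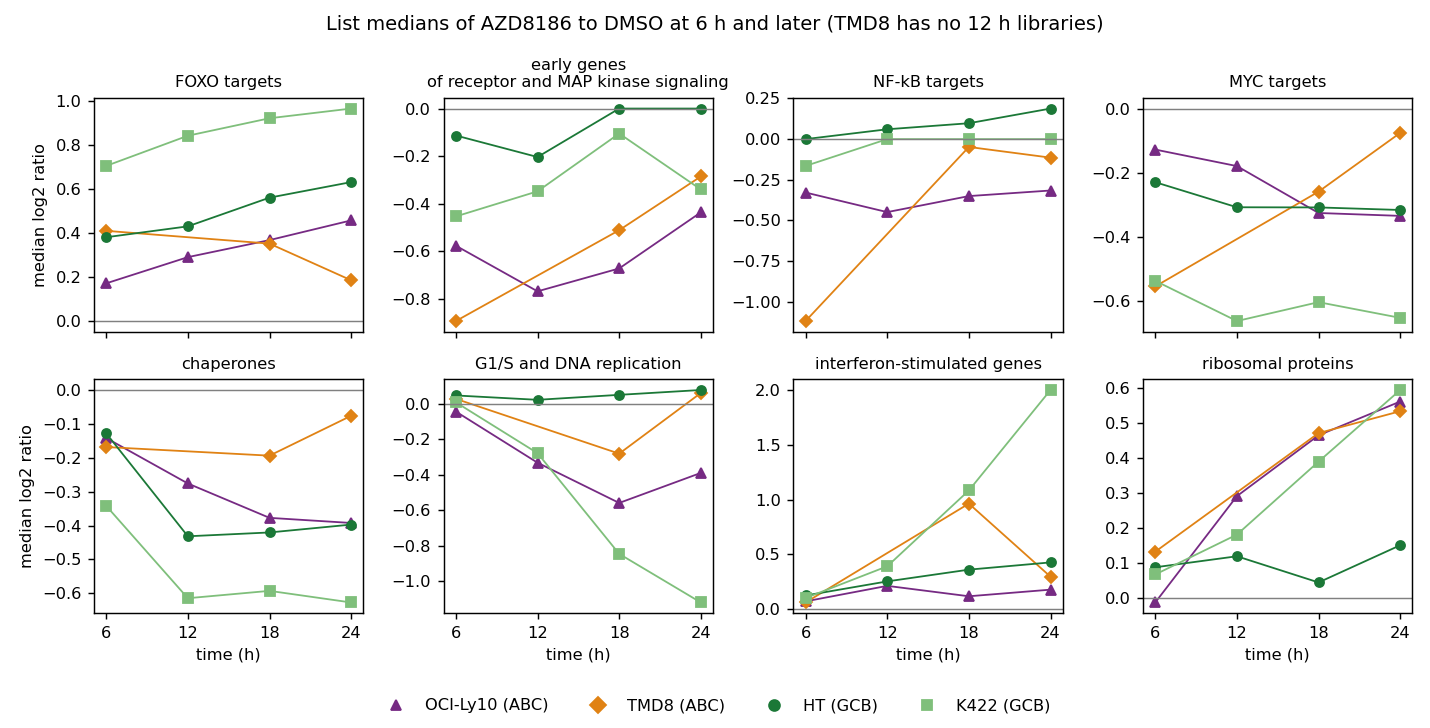
Median log2 ratio of AZD8186 to DMSO of 8 gene lists at 6, 12, 18 and 24 h in each line (TMD8 has no 12 h libraries). At 6 h the ribosomal protein and interferon medians lie at 0.13 or less in all 4 lines and are higher at 24 h in each, while the NF-κB median of TMD8 is at -1.12 at 6 h and near 0 later.

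The calls against later times depended on the terms and lines of the fit. With 1 treatment effect for all lines in place of 1 per line, 0 genes passed by edgeR (691 lower and 532 higher at an unadjusted p under 0.05), against 24 h alone 1 was lower and 0 higher, and without 24 h 27 were lower and 11 higher. Without HT 20 were lower and 2 higher, without K422 52 and 6, without OCI-Ly10 51 and 15, and without TMD8 128 and 65, of which 17, 48, 45 and 90 were among the 160 calls.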

How the data were processed

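RNA was isolated from the 4 cell lines with the NucleoSpin RNA Plus kit and sequenced by Novogene. According to the study's methods and the submitters' processing notes, HISAT2 mapped the reads to human transcripts and RSEM summed them by gene. The notes name GRCh38.p12. Tool versions were not given in the sources used here. Expected counts, TPM and FPKM were deposited per gene for each library, all made by the authors with RSEM. The FPKM values deposited by the authors entered no test. Each file has 21112 rows, and 20 second copies of a symbol were summed, which left 21092 symbols. In the 6 h libraries 23.7% to 27.5% of genes held fractional estimates, and expected counts were rounded to whole numbers. No pair of libraries held identical values.

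Genes were filtered with filterByExpr and normalized by TMM in edgeR 4.0.16 (limma 3.58.1, R 4.3.3), then fitted with glmQLFit and tested with glmQLFTest. The response at 6 h was fitted on 8 libraries with cell line and treatment (3 residual degrees of freedom), the subtypes and their difference with a treatment effect per subtype (2), and 6 h minus later times on 30 libraries with the pair as a block (10). The standard error is the fold change divided by the square root of F. The pairing by cell line comes from the labels. As a check, the deviations from the group means of both libraries of a line correlated at 0.946 to 0.971. Alternatives were DESeq2 1.42.0 size factors and its Wald test, limma-voom, other filters, no replicate block, limma on log2(TPM + 1) of the TPM deposited by the authors, all 30 libraries, removal of ribosomal RNA genes, and each line left out in turn.

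The genes named were those of interest to the study, 15 per direction with the same sign in all 4 pairs and a mean of 5 CPM or more (called genes, then those of smallest p), the 5 of smallest p in each list, and the 6 of smallest p per direction in ABC minus GCB and in 6 h minus later times with that mean. A few genes that the rule names are not reported here. The 8 libraries, the lists and the rule were chosen with earlier results of these data known. Promoters were read from RefSeq and searched in Python 3.11.15 with pandas 2.3.3 and numpy 2.4.6, and all 8 called genes had an entry. Gene positions come from GENCODE 29. The fits were also run on simulated counts in which a changed gene had the same change in every line given one. The responses here differed between lines, so that this run cannot show how the tests perform on these data. Each 6 h library held 16895329 to 20705430 counts.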

Additional observations from a re-analysis of the deposited data

Results flagged for a closer look

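In 215 groups of 4 values, which were the log2 ratios of the 4 lines at 6 h for genes and list medians and the library totals and ribosomal RNA shares, 1 line stood far from the other three in 12, all of them genes, and chance gives about 1 in 20. The line that stood apart was K422 for CENPF (0.86), HSP90AA1 (-0.38) and SPIB (-1.01), and TMD8 for DNAJB11 (-0.57), IFIT2 (1.20) and RRM1 (0.32). It was HT for CCND2 (0, where HT had next to no reads), OAS1 (1.22) and PFKFB3 (-0.18), and OCI-Ly10 for KRT18 (1.95, at low counts), SYNGR2 (-0.42) and YPEL3 (0.60).

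The treatment effect in ABC minus that in GCB passed the test for IFI16 (-1.57) and RNA28SN5 (-4.81), on the log2 scale. The effect at 6 h minus that at later times passed for 20 of the genes named. It was above 0 for the chaperones HSP90AA1 (0.58), HSPD1 (0.50), HSP90AB1 (0.42) and HSPA9 (0.39), and for ASNS (0.44), BCAT1 (0.43) and LDHA (0.41). It was below 0 for TCL1B (-1.30), TAS1R3 (-1.29), JCHAIN (-1.28), PTPN6 (-0.86), UCP2 (-0.72), CAPG (-0.68), OAS1 (-0.68), MTRNR2L1 (-0.65), SPIB (-0.62), CD37 (-0.62), BCL2L1 (-0.60), MTRNR2L8 (-0.60) and CORO1B (-0.57). The difference was negative for PTPN6, which was lower under AZD8186 at every time with its lowest ratio at 6 h, and the ratio of BCL2L1 was likewise lowest at 6 h in every line.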

How the results depend on the processing

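The number of calls at 6 h, 7 lower and 1 higher, differed between methods, filters, scales, pairing and the lines included, while the directions of the called genes held. DESeq2 called 414 lower and 284 higher, the fit over all 30 libraries 490 and 284, no filter on low counts 282 and 170, limma-voom 38 and 28, and DESeq2's size factors in edgeR 7 and 1. Without ribosomal RNA and MTRNR2L genes 8 were lower and 3 higher. A minimum of 5 CPM in 4 libraries and limma-trend on log2(TPM + 1) each gave 1 lower, PTPN6, and 0 higher, with 1132 lower and 1113 higher by edgeR and 1423 and 860 by limma-trend at an unadjusted p under 0.05. With no replicate block, that is without the pairing by cell line, edgeR called 0 and 0 (36 lower and 11 higher at an unadjusted p under 0.05). Leaving out 1 pair gave 0 to 6 lower and 0 to 4 higher genes at 6 h. In ABC minus GCB it gave 0 to 183 lower and 0 to 195 higher. In ABC it gave 4 to 683 and 0 to 473, and in GCB 0 to 571 and 0 to 416. In 6 h minus later times a whole line was left out, with all its pairs. This gave 20 to 128 lower and 2 to 65 higher. Without the TMD8 pair, ABC minus GCB had 10 lower and 6 higher genes and GCB 501 and 354. No filter on low counts gave 19 lower and 28 higher in ABC minus GCB, 202 and 136 in ABC, 154 and 136 in GCB and 236 and 78 in 6 h minus later times, and DESeq2's size factors gave 3 and 7 in GCB. For 6 h minus later times, 1 treatment effect for all lines gave 0 and 0 by edgeR (691 and 532 at an unadjusted p under 0.05), 24 h as the only later time 1 and 0, and later times without 24 h 27 and 11. The cause of these changes was not tested. Of the named genes, signs changed only for CD68 (-0.012 on the TPM scale and -0.18 without the TMD8 pair), DCN (-0.13 by DESeq2), JUND (-0.073 without HT and -0.012 without K422), KRT18 (0.17 by DESeq2, 0.076 by limma-voom, 0.073 without HT and 0.073 without K422), KRT8 (0.12 without HT and 0.037 without K422) and TNFAIP3 (0.11 without TMD8). None of these passed the test at 6 h. IL10 and PDCD1 had 0 to 2 counts in each HT and K422 library, too few to show a response there.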
